A study of Mus musculus with 8 samples.

Results

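The 8 genes described here make, break down and sense retinoic acid in mouse chondrocytes: Aldh1a1, Aldh1a2 and Aldh1a3 (synthesis), Cyp26a1 and Cyp26b1 (breakdown), and Rara, Rarb and Rarg (receptors). They were chosen by name, 8 of 21883 protein-coding genes, and their data are the called peaks that lay over a gene or within 5 kb of it. These peaks numbered 25 of 33739 in Ezh2-cKO, 31 of 49405 in Utx-cKO, 23 of 27013 in Jmjd3-cKO and 18 of 28057 in wild type.

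Chromatin immunoprecipitation and sequencing (ChIP-seq) was run on cultured chondrocytes from cartilage with an antibody to H3K27me3, a histone methylation that Ezh2, a Polycomb enzyme, deposits and that Utx (Kdm6a) and Jmjd3 (Kdm6b) take off. The genotypes were labelled Ezh2-cKO, Utx-cKO, Jmjd3-cKO and wild type, with 1 ChIP and 1 input library each (the labels write Ezh2-Cko and Jmjd3-Cko), and the design text calls the knockout cells Ezh2, Utx or Jmjd3 deleted. The sources used here do not give the deleting transgene, the strain, age and sex of the mice, or whether animals were pooled. All groups shared the same medium and antibody. With 1 ChIP library per genotype, no difference below has a replicate check and none was tested.

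Retinoic acid is made from retinol in successive oxidation steps, and the retinaldehyde dehydrogenases of the Aldh1a family carry out the last. Enzymes of the Cyp26 family oxidise it for clearance, and what remains acts on nuclear receptors, which bind DNA as pairs of a retinoic acid receptor (Rar) and a retinoid X receptor (Rxr). In cartilage retinoic acid is known to oppose early chondrocyte differentiation. Cyp26b1 limits retinoic acid in the developing skeleton, and Rarg is known as a main receptor of growth plate chondrocytes.

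A peak here means a stretch that the authors called enriched over the input of the same genotype at a q of 0.05, and fold enrichment is their ratio over that local input. It ranks peaks within a list. Its values for the lists stand side by side below, and a difference between lists is not read as a change in the mark. An alternative with a fixed level of 4 did apply it across lists. The ChIP libraries held 25655346 to 34786292 fragments after removal of duplicates and the inputs 16599532 to 24041619. Peak calls near the threshold depend on depth as well as on the mark. Called peaks covered 48.1 Mb in Ezh2-cKO, 74.3 Mb in Utx-cKO, 41.4 Mb in Jmjd3-cKO and 40.5 Mb in wild type. Among genes that mark chondrocytes, such as Sox9 and Col2a1, 9 of 9 had a peak in all 4 lists, as did 10 of 10 housekeeping genes. Of 10 genes known as Polycomb targets in many tissues, 8 had a peak in Ezh2-cKO, 9 in Utx-cKO, 8 in Jmjd3-cKO and 8 in wild type. Beside these counts and those of other cell types below, 66.4% of all protein-coding genes had a peak in all 4 lists. By list the share was 70.6% in Ezh2-cKO, 73.5% in Utx-cKO, 68.9% in Jmjd3-cKO and 68.7% in wild type. Peaks also lay over 93.2 to 95.3% of CpG-rich promoter windows in every list, and the Ezh2-cKO list covered more of the genome than the wild-type list although Ezh2 deposits the mark. Whether these peaks are H3K27me3 is therefore in doubt and cannot be settled from the lists. Below, a gene called marked is one with a called peak, which is not read as the state of the gene, and the data hold no transcript levels. Of 5 blood markers, 2 had a peak in Ezh2-cKO, 3 in Utx-cKO, 1 in Jmjd3-cKO and 0 in wild type. Of 4 muscle markers, 2 had a peak in Utx-cKO and 0 in every other list, and of 5 osteoblast markers 3 had one in Utx-cKO and 2 in every other list. For tendon or synovium and for endothelium, 2 of 4 markers had a peak in each list. The part of other cell types in the results below was not tested.

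Presence at the start differed between genotypes for Aldh1a2, Cyp26a1 and Aldh1a1, and Rarb, marked in all 4 lists, holds a known receptor site, so these 4 sequences are shown first, as RefSeq promoter windows of GRCm38.p6 from 250 bases before to 50 after the start. Capitals mark the letters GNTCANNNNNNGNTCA on either strand, a direct repeat of the half-site that retinoic acid receptors bind, with 5 bases between the half-sites. Each half-site is GNTCA with a free base before it. The last N before the second GNTCA therefore belongs to the half-site, here and in the repeats named below.
Aldh1a2, chr9:71215539-71215838, plus strand: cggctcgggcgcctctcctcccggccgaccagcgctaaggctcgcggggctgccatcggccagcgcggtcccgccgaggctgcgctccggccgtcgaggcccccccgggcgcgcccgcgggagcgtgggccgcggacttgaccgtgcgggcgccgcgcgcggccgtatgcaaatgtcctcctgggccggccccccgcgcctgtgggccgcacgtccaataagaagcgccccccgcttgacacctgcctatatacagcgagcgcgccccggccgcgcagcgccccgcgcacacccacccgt
Cyp26a1, chr19:37697558-37697857, plus strand: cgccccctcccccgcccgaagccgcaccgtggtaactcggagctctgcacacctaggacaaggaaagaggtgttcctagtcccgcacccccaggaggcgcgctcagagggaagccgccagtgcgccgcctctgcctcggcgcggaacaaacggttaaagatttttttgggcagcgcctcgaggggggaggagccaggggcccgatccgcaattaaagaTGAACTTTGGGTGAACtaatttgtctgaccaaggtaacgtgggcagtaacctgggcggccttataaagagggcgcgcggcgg
Rarb, chr14:16575427-16575726, minus strand: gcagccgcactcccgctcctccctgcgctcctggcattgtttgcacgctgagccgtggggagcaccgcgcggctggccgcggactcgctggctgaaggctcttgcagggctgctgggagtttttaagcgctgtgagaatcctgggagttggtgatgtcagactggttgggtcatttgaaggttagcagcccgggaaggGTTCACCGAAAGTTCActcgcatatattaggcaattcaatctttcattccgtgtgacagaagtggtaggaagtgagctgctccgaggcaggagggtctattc
Aldh1a1, chr19:20492333-20492632, plus strand: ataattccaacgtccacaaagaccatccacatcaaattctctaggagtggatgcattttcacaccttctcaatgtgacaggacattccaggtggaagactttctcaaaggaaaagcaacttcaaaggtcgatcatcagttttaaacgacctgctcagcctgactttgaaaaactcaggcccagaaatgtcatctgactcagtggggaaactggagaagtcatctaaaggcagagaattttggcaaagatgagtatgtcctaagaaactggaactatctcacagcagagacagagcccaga

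The repeat with 5 intervening bases was found at position -52 from the start in Rarb, read as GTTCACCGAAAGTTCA, and at position -32 in Cyp26a1 on the opposite strand, read along the gene as TGAACTTTGGGTGAAC. Both genes are textbook examples of genes that retinoic acid induces. Of the 21262 promoter windows of protein-coding genes, 0.79% held this repeat. Repeats with 1 intervening base (GNTCANNGNTCA, 1.03% of windows) or 2 (GNTCANNNGNTCA, 0.842%) were in none of the 12 windows that RefSeq gives for these genes, and neither was the first repeat in the 10 windows other than those 2. No window of these genes held more than 1 of the 3 repeats. The windows differed more in their content of CpG, the dinucleotide that is dense in many promoters. Aldh1a2 had 50 CpG in 300 bases, Cyp26a1 26, Rarb 17 and Aldh1a1 3, against a median of 13 over all windows. For Aldh1a3 no window was matched.

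In Utx-cKO all 8 genes had a peak over them or within 5 kb, in Ezh2-cKO and in Jmjd3-cKO 7, and in wild type 6. The share of all protein-coding genes with such a peak was 73.5% in Utx-cKO, 70.6% in Ezh2-cKO, 68.9% in Jmjd3-cKO and 68.7% in wild type, and some of the 8 genes are far longer than the median of 17170 bp, which gives a peak more room. Aldh1a3, Cyp26b1, Rara, Rarb and Rarg had a peak in all 4 lists, as 66.4% of all genes did. Aldh1a2 had a peak in each of the 3 knockouts and none in wild type, a pattern of 1.22% of all genes. Cyp26a1 had one in Utx-cKO and Jmjd3-cKO alone, a pattern of 0.457% of genes, but its Utx-cKO peak lay in the neighbour Cyp26c1 and not over Cyp26a1. Aldh1a1 had one in every list except Jmjd3-cKO, as 0.978% of genes did.

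**Figure D1:**
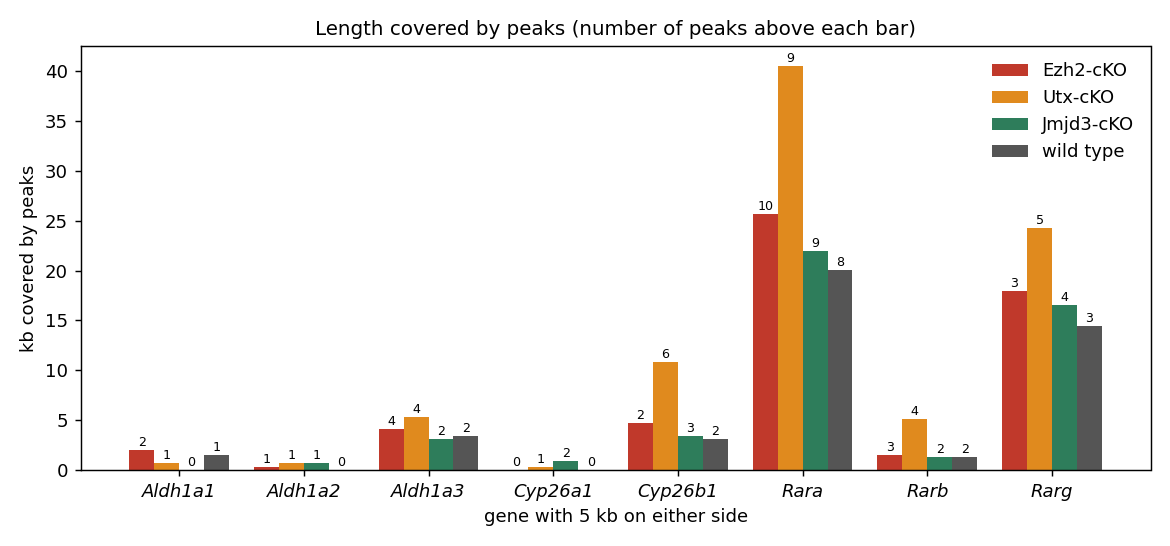
Length covered by called peaks, in kb, over each gene and 5 kb on either side, in Ezh2-cKO, Utx-cKO, Jmjd3-cKO and wild type, with 1 library each and the number of peaks above each bar. Rara and Rarg held most of the covered length in every list, and Aldh1a2 and Cyp26a1 had none in wild type. Peaks in a neighbouring gene are counted. The Cyp26a1 bar in Utx-cKO is a peak in Cyp26c1, and most of every Aldh1a3 bar is a peak at Lrrk1.

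Aldh1a2 encodes the dehydrogenase that supplies most retinoic acid in the early embryo, and it lies on chromosome 9 from 71215789 to 71296243. Its peak was 287 bp long in Ezh2-cKO (71215501 to 71215787), 736 bp in Jmjd3-cKO (71215389 to 71216124) and 702 bp in Utx-cKO (71215360 to 71216061), and the wild-type list had no peak there. The 3 knockout peaks lay over each other at the CpG-dense window printed above, and the rest of the gene body held none. Their −log10 q was 2.68 in Ezh2-cKO, 6.04 in Jmjd3-cKO and 6.06 in Utx-cKO, so the Ezh2-cKO peak was the nearest to the threshold and it ended 2 bp before the start. Fold enrichment was 2.66 in Ezh2-cKO, 4.08 in Jmjd3-cKO and 3.88 in Utx-cKO, which placed the peak at percentile 30.2 of the Ezh2-cKO list, 69.8 of the Utx-cKO list and 52.6 of the Jmjd3-cKO list. Of all promoter windows, 1.36% had a peak in the 3 knockouts and not in wild type.

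Aldh1a1 encodes the dehydrogenase known from adult liver and eye and spans chromosome 19 from 20492583 to 20643463. The peak at its first start was 1607 bp long in Ezh2-cKO, 713 bp in Utx-cKO and 1489 bp in wild type, and the Jmjd3-cKO list had no peak over the whole gene. The Ezh2-cKO peak had fold enrichment 3.33, the Utx-cKO peak 4.30 and the wild-type peak 3.23. In Utx-cKO the peak began 25 bp after the start, whereas in Ezh2-cKO and wild type it spanned the start. The Ezh2-cKO list held a further peak of 397 bp inside the gene, from 20513826 to 20514222. The second promoter window, from 20601718 to 20602017, had no peak in any list. A peak in every list except Jmjd3-cKO was found at 0.687% of promoter windows. Jmjd3-cKO had the shallowest ChIP library, with 25655346 fragments, and the part of depth in this absence was not tested.

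Aldh1a3, the third dehydrogenase, known from the eye and nose, lies on chromosome 7 from 66390892 to 66427477. Its high-coordinate end carried a peak of 749 bp in Ezh2-cKO, 1064 bp in Utx-cKO, 804 bp in Jmjd3-cKO and 620 bp in wild type. The strongest peak in its window belonged elsewhere by position. That peak, with fold enrichment 13.1 in Ezh2-cKO, 14.1 in Utx-cKO, 12.9 in Jmjd3-cKO and 12.3 in wild type, lay outside Aldh1a3 and over the promoter window of its neighbour Lrrk1, a kinase gene. Without it, the strongest peak at Aldh1a3 stood at percentile 54.8 of the list in Ezh2-cKO, 76.3 in Utx-cKO, 49.9 in Jmjd3-cKO and 62.1 in wild type. Inside the gene body Ezh2-cKO had 2 weak peaks, at 66407475 and 66417297, and Utx-cKO had 2 at other places, at 66401208 and 66410186. No peak of the other lists overlapped any of these 4.

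**Figure D2:**
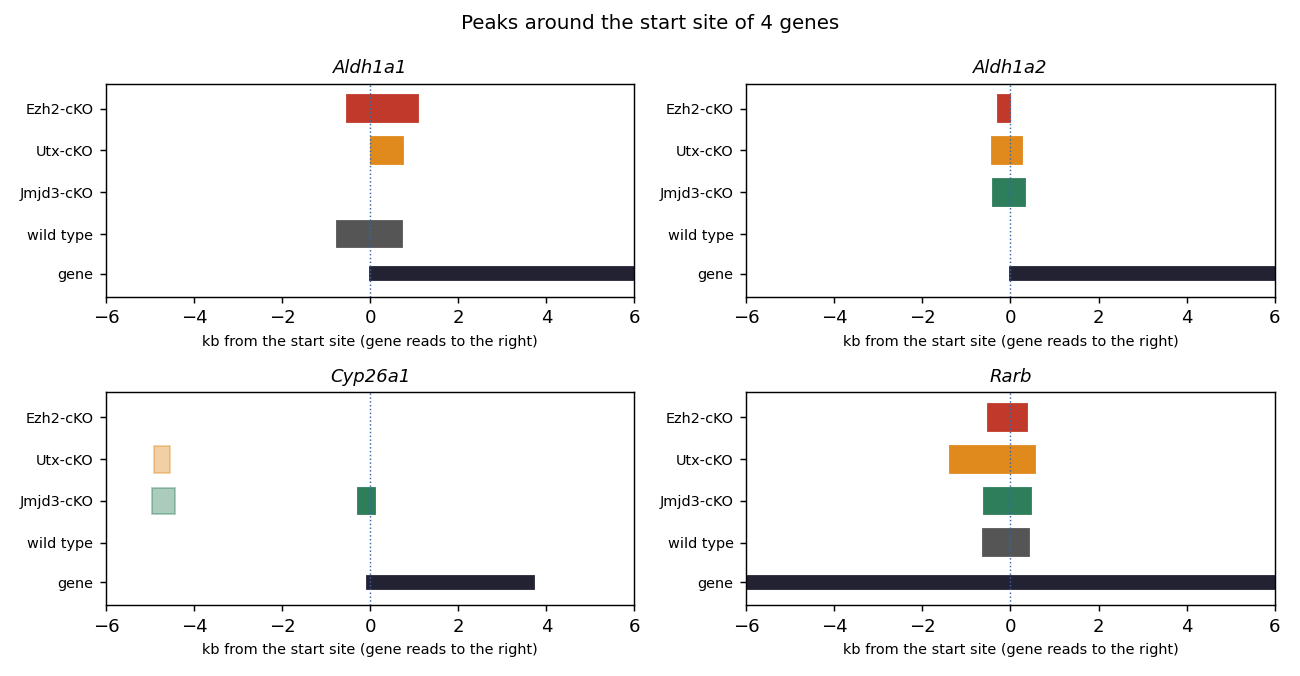
Called peaks (blocks) from 6 kb before to 6 kb after the first listed start site (dotted line at 0) of Aldh1a1, Aldh1a2, Cyp26a1 and Rarb, with the gene as a dark bar and pale blocks for peaks that lie in a neighbouring gene. The Aldh1a2 start is covered in Utx-cKO and Jmjd3-cKO, and the Ezh2-cKO peak ends just before it. Wild type has no peak there. The Cyp26a1 start is covered in Jmjd3-cKO alone, and the Rarb start in all 4 lists.

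Cyp26a1, the retinoic acid-inducible breakdown enzyme, is a short gene on chromosome 19 from 37697738 to 37701536. Its start had a peak of 380 bp in Jmjd3-cKO, from 37697530 to 37697909, and none in Ezh2-cKO, Utx-cKO or wild type. That peak had a −log10 q of 1.67 and fold enrichment 2.52, at percentile 7.05 of its list, which is close to the authors' threshold. A start peak in Jmjd3-cKO alone was found at 0.249% of all promoter windows. The other peaks counted for Cyp26a1 lay in its neighbour Cyp26c1, the third gene of this enzyme family, between 37692865 and 37693373. They were 347 bp long in Utx-cKO and 509 bp in Jmjd3-cKO. In Utx-cKO no peak lay over Cyp26a1 itself.

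Cyp26b1, the enzyme that limits retinoic acid in the developing skeleton, spans chromosome 6 from 84571414 to 84593908 and is read from high to low coordinates. No list had a peak over its promoter window, as was the case for 36.7% of windows. The strongest peaks lay inside the gene between 84582820 and 84590133. There a single peak of 4070 bp in Ezh2-cKO and one of 7314 bp in Utx-cKO each spanned a pair of wild-type peaks. Jmjd3-cKO had separate peaks of 1936 bp and 1214 bp, close to those of 2033 bp and 1095 bp in wild type. Ezh2-cKO had a further peak of 667 bp within the stretch that Utx-cKO covered. Utx-cKO had 5 further peaks across the gene and its 3′ flank, with fold enrichment 2.63 to 3.0, and 1 of these, in the flank, had a counterpart in Jmjd3-cKO. The strongest peak had fold enrichment 3.95 in Ezh2-cKO, 5.02 in Utx-cKO, 4.68 in Jmjd3-cKO and 4.03 in wild type. Peaks covered 4737 bp of the gene with its flanks in Ezh2-cKO, 10875 bp in Utx-cKO, 3414 bp in Jmjd3-cKO and 3128 bp in wild type.

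Within this group the receptor genes Rara and Rarg stood out by width. They were not alone among nuclear receptor genes. In wild type peaks covered 18359 bp at Thra, whose product pairs with Rxr, and 11948 bp at Rxrb, but 664 bp at Rxrg. The same measure was 20023 bp at Rara and 14485 bp at Rarg. Rara, the most broadly expressed receptor, lies on chromosome 11 from 98927800 to 98974942. The peak over its first promoter windows was 9844 bp in Ezh2-cKO, 12196 bp in Utx-cKO, 9636 bp in Jmjd3-cKO and 9618 bp in wild type. In Utx-cKO a second peak, over the last promoter window, was longer still at 12340 bp, and it spanned 3 wild-type peaks. By length the peak over the first windows ranked 80 in Ezh2-cKO, 131 in Utx-cKO, 88 in Jmjd3-cKO and 73 in wild type. Its strongest peak had a modest fold enrichment of 5.01 in Ezh2-cKO, 6.98 in Utx-cKO, 5.32 in Jmjd3-cKO and 4.35 in wild type. Peaks covered 44.9% of Rara with its flanks in Ezh2-cKO, 70.8% in Utx-cKO, 38.4% in Jmjd3-cKO and 35.0% in wild type. The first base of the gene and all 4 of its promoter windows were covered in all 4 lists. The predicted gene Gm46294 overlaps the same peak, so the peak cannot be assigned to either gene alone. Of the Utx-cKO peaks in the flank, one lay in Cdc6, a DNA replication gene.

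Rarg, on chromosome 15 from 102234938 to 102257522 and read from high to low coordinates, carried the longest single peak of the group. In Utx-cKO 1 peak of 17983 bp, from 102241827 to 102259809, ran over both starts and ranked 29 by length of 49405. The same stretch held 2 peaks in Ezh2-cKO, of 10862 bp and 4580 bp, and 2 in Jmjd3-cKO, of 10192 bp and 4854 bp. Wild type had 3 peaks in it, of 8605 bp, 819 bp and 5061 bp. The strongest peak had fold enrichment 6.66 in Ezh2-cKO, 7.79 in Utx-cKO, 8.17 in Jmjd3-cKO and 5.89 in wild type. Peaks covered 55.2% of Rarg with its flanks in Ezh2-cKO, 74.4% in Utx-cKO, 50.9% in Jmjd3-cKO and 44.5% in wild type. At the 3′ end of the gene each knockout had a peak of fold enrichment 2.63 to 3.03, from 102233859 in Ezh2-cKO, from 102235110 in Jmjd3-cKO and from 102234029 in Utx-cKO, where wild type had none. The integrin gene Itgb7, which lies beyond that end, held further peaks in Utx-cKO and Jmjd3-cKO that count as flank of Rarg.

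**Figure D3:**
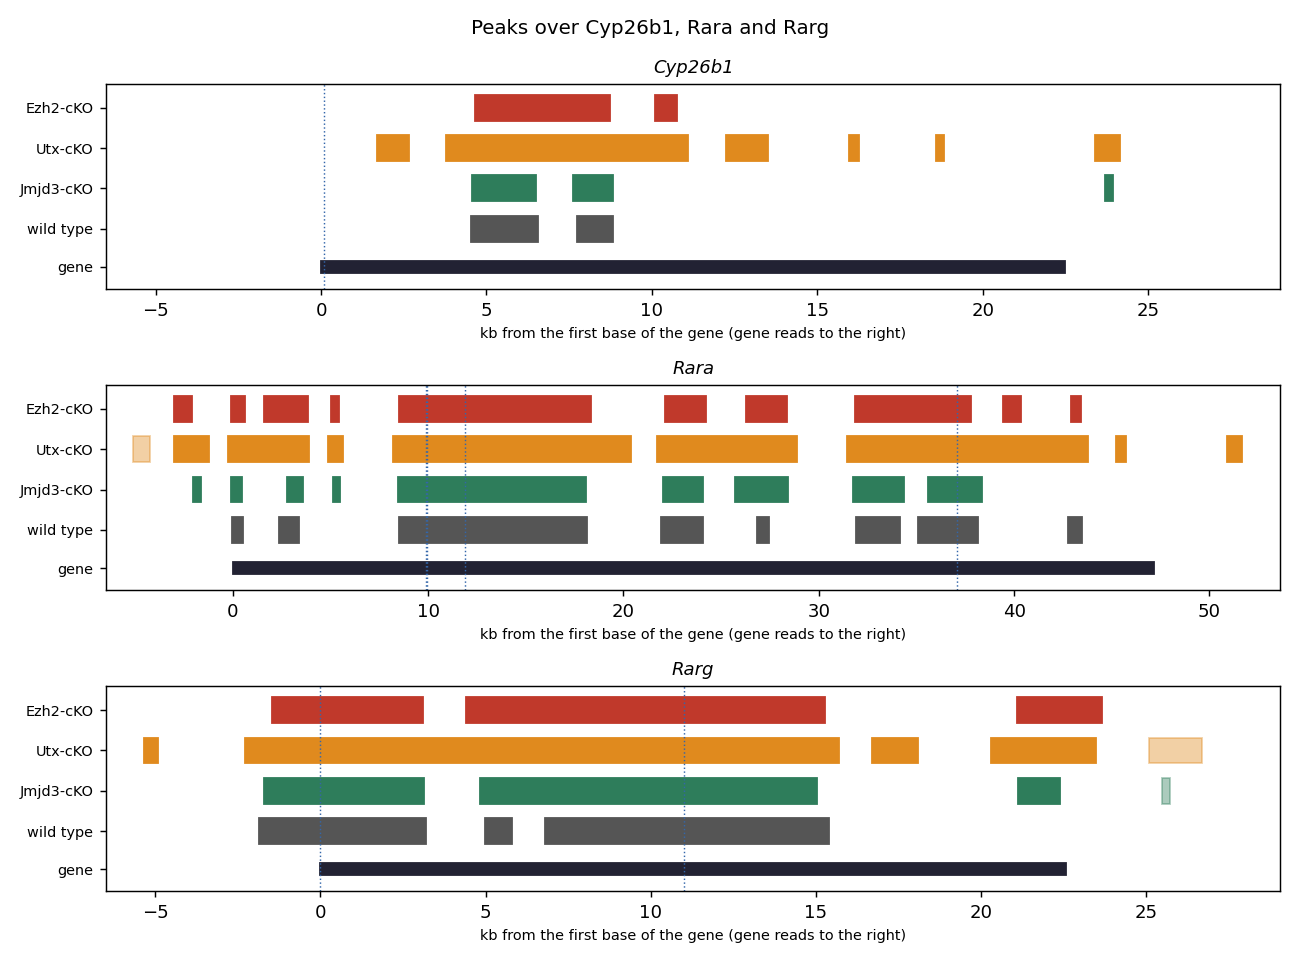
Called peaks (blocks) along Cyp26b1, Rara and Rarg, in kb from the first base of each gene, with the gene as a dark bar, promoter start sites as dotted lines and pale blocks for peaks that lie in a neighbouring gene. Utx-cKO joins stretches that are separate peaks in wild type, most clearly over Rarg, where 1 peak of 17983 bp stands over 3 wild-type peaks.

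Rarb, the receptor gene that retinoic acid induces, is the longest of the group, on chromosome 14 from 16430839 to 17082331, and its peaks were few and short. The start with the repeat printed above had a peak of 878 bp in Ezh2-cKO, 1919 bp in Utx-cKO, 1054 bp in Jmjd3-cKO and 1054 bp in wild type. Fold enrichment there was 4.03 in Ezh2-cKO, 5.68 in Utx-cKO, 3.92 in Jmjd3-cKO and 4.82 in wild type. The percentile within the list was 63.2 in Ezh2-cKO, 78.0 in Utx-cKO, 51.0 in Jmjd3-cKO and 65.3 in wild type. Outside this peak no place in Rarb had a peak in more than 2 lists. One upstream of that start and inside the gene, from 16597845 to 16598268, was shared by Ezh2-cKO, with fold enrichment 2.93, and Utx-cKO, with 3.29. Peaks covered 0.234% of the gene with its flanks in Ezh2-cKO, 0.782% in Utx-cKO, 0.197% in Jmjd3-cKO and 0.201% in wild type.

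In strength the genes lay below the typical marked gene. With peaks that lie in a neighbour left out, the strongest peak of a gene exceeded the median of all marked genes in 1 of 27 cases where a gene had one. That case was Rarg in Jmjd3-cKO, with 8.17 against a median of 8.12. The median for Ezh2-cKO was 7.35, for Utx-cKO 8.81 and for wild type 6.49. These medians include peaks in neighbours, so the comparison is uneven, and the 27 cases repeat the same genes across lists. With the Lrrk1 peak kept, Aldh1a3 stood at percentile 94.7 of marked genes in Ezh2-cKO and 90.8 in Utx-cKO. It then stood at 85.7 in Jmjd3-cKO and 95.7 in wild type. The order by width was different. The longest peak of a marked gene had a median of 2146.5 bp in Ezh2-cKO, 2564.5 bp in Utx-cKO, 2056 bp in Jmjd3-cKO and 2041 bp in wild type, which the longest peaks of Rara and Rarg exceeded in every list. Those of Aldh1a1, Aldh1a2 and Rarb lay below it in every list that had one.

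**Figure D4:**
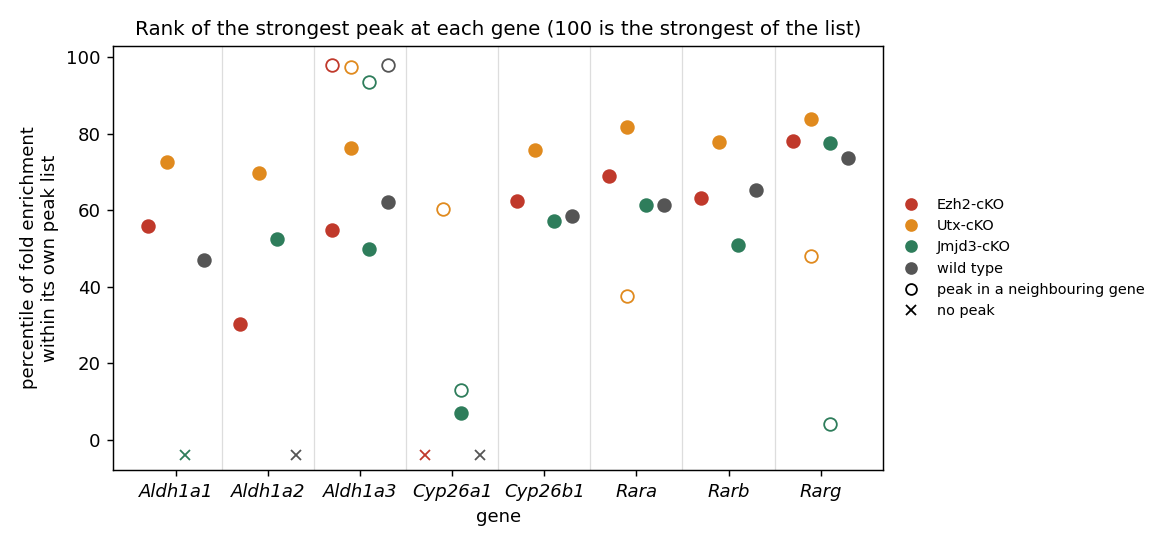
Percentile of the fold enrichment of the strongest peak at each gene within its own list, where 100 is the strongest peak, in Ezh2-cKO, Utx-cKO, Jmjd3-cKO and wild type. Filled points are peaks over the gene or its own flank, open points peaks in a neighbouring gene and crosses genes with no peak. Rara and Rarg stand above 60 in every list, and the lists differ in length, Utx-cKO holding 49405 peaks and wild type 28057.

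With peaks in neighbours left out, the percentile was highest in Utx-cKO for each of the 7 genes with a peak of its own in that list. When each list was held to its 27013 strongest peaks, Rarg stood at percentile 72.5 in Ezh2-cKO, 70.8 in Utx-cKO, 77.5 in Jmjd3-cKO and 72.6 in wild type. Rarb then stood at 54 in Ezh2-cKO, 59.7 in Utx-cKO, 51 in Jmjd3-cKO and 64 in wild type. Rara stood at 61.3 in Ezh2-cKO, 66.5 in Utx-cKO, 61.5 in Jmjd3-cKO and 60 in wild type. Under this limit Utx-cKO was highest for Rara and for Aldh1a1, which stood at 50 in Utx-cKO, 45.1 in Ezh2-cKO and 44.9 in wild type. It was not highest for Rarb or Rarg, for Aldh1a2, with 12.8 in Ezh2-cKO, 52.6 in Jmjd3-cKO and 44.8 in Utx-cKO, or for Cyp26b1, with 53.2 in Ezh2-cKO, 55.7 in Utx-cKO, 57.2 in Jmjd3-cKO and 57 in wild type. For Aldh1a3 the value under this limit is that of the Lrrk1 peak. Each gene kept its presence and absence in all 4 lists under this limit.

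By position, the peaks of the group formed 38 regions when overlapping peaks of the 4 lists were joined. Of these 9 had a peak in all 4 lists (23.7%), against 37.2% of all regions near protein-coding genes. A peak in all 3 knockouts and not in wild type was found in 4 regions (10.5%), against 3.23%, and the 4 were the Aldh1a2 start, the 3′ end of Rarg and 2 places near the 5′ end of Rara. A peak in Utx-cKO alone was found in 13 regions (34.2%), against 28.9%, and a peak in wild type alone in 1 (2.63%), against 3.56%. Of the peaks at these genes, 14 of 25 in Ezh2-cKO were overlapped by a wild-type peak (56.0%, 95% Wilson interval 37.1 to 73.3%), 10 of 31 in Utx-cKO (32.3%, 18.6 to 49.9%) and 14 of 23 in Jmjd3-cKO (60.9%, 40.8 to 77.8%). Over all peaks the share was 66.5% in Ezh2-cKO, 78.0% in Jmjd3-cKO and 47.8% in Utx-cKO. Of the 18 wild-type peaks, Ezh2-cKO peaks overlapped 17, Utx-cKO peaks 17 and Jmjd3-cKO peaks 15. Of all wild-type peaks, 80.7% were overlapped by Ezh2-cKO peaks, 87.3% by Utx-cKO peaks and 75.8% by Jmjd3-cKO peaks. The intervals cover counting error only, and peaks of 1 gene are not independent. Peaks that span 2 or more wild-type peaks numbered 3 of 25 in Ezh2-cKO, 1 of 23 in Jmjd3-cKO and 5 of 31 in Utx-cKO, and over all peaks the share was 1.17% in Ezh2-cKO, 1.32% in Jmjd3-cKO and 1.76% in Utx-cKO. All 9 lie in Cyp26b1, Rara and Rarg.

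Marked starts included windows rich and poor in CpG. Of the 12 promoter windows of these genes, 9 had a peak in Ezh2-cKO, 9 in Utx-cKO, 9 in Jmjd3-cKO and 8 in wild type, beside 59.4% of all windows in Ezh2-cKO, 62.3% in Utx-cKO, 58.6% in Jmjd3-cKO and 57.5% in wild type. Among promoter windows with an observed to expected CpG ratio of 0.6 or more, 94.2% had a peak in Ezh2-cKO, 95.3% in Utx-cKO, 94.4% in Jmjd3-cKO and 93.2% in wild type. Of the 5 such windows in these genes, 4 had one in Ezh2-cKO, 4 in Utx-cKO, 5 in Jmjd3-cKO and 3 in wild type, the wild-type exceptions being Aldh1a2, with more CpG than 98.9% of all windows, and Cyp26a1, with more than 77.4%. Of the 7 windows under that ratio, 5 had a peak in Ezh2-cKO, 5 in Utx-cKO, 4 in Jmjd3-cKO and 5 in wild type, against 27.8% of all such windows in Ezh2-cKO, 32.2% in Utx-cKO, 26.0% in Jmjd3-cKO and 25.0% in wild type. These were windows of Rara, Rarg and Aldh1a1, and those of Rara and Rarg lay under broad peaks. The windows rich in CpG include overlapping windows of Rara that lie under the same peak in each list. Windows of the same gene are thus not independent.

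In the wider retinoid pathway, 33 of 38 genes had a peak in Ezh2-cKO, 37 in Utx-cKO, 35 in Jmjd3-cKO and 32 in wild type, and 31 in all 4 lists. Of all protein-coding genes, 70.6% had a peak in Ezh2-cKO, 73.5% in Utx-cKO, 68.9% in Jmjd3-cKO and 68.7% in wild type, and 66.4% in all 4 lists. The receptors' partners Rxra, Rxrb and Rxrg, all 8 coregulators, such as Ncor1 and Ep300, and all 8 other partners of the retinoid X receptors, such as Vdr, had a peak in every list. Rdh10, which carries out the first oxidation of retinol, also had a peak in every list. Presence differed for 6 genes, of which Cyp26c1 has the peaks already counted for Cyp26a1. Among all genes, 0.457% had a peak in Utx-cKO and Jmjd3-cKO alone. Another 1.22% had one in the 3 knockouts and not in wild type, and 0.978% in every list except Jmjd3-cKO. Crabp1, a retinoic acid-binding protein, and Lrat, which esterifies retinol for storage, had peaks in Utx-cKO and Jmjd3-cKO alone. Bco1, which cleaves carotene, had one in the 3 knockouts and not in wild type, and Rbp2, a retinol-binding protein, in Utx-cKO alone. Adh1, an alcohol dehydrogenase, was missing from Jmjd3-cKO alone. Cyp26c1, described above, had one in Utx-cKO and Jmjd3-cKO, and Rdh1 had none in any list. Leaving Cyp26c1 aside, these peaks had fold enrichment from 2.37 at Bco1 in Ezh2-cKO to 3.90 at Crabp1 in Jmjd3-cKO. Of 22 genes known to respond to retinoic acid, 18 had a peak in Ezh2-cKO, 19 in Utx-cKO, 19 in Jmjd3-cKO and 17 in wild type. The shares of all genes with a peak, given above for each list, lie between 68.7% and 73.5%. The homeobox gene Gbx2 was the one with a peak in the 3 knockouts and not in wild type, and Cdx2, another homeobox gene, had one in Utx-cKO and Jmjd3-cKO alone.

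By the same rule, a peak with no wild-type peak at the gene was found at 3.05% of all genes in Ezh2-cKO, 2.0% in Jmjd3-cKO and 5.30% in Utx-cKO. The converse, a wild-type peak with none in the knockout, was found at 1.12% of genes for Ezh2-cKO, 0.507% for Utx-cKO and 1.77% for Jmjd3-cKO. Among the 8 genes the first count was 1 in Ezh2-cKO, 2 in Jmjd3-cKO and 2 in Utx-cKO, and the converse was 1 for Jmjd3-cKO, where it was Aldh1a1, and 0 for each of the others. With so few genes and 1 library per genotype these counts describe the lists only. Utx-cKO and Jmjd3-cKO share a prefix in their titles that Ezh2-cKO and wild type do not, so for every comparison with wild type the set of libraries and the genotype cannot be told apart.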

How the data were processed

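Per the file headers, MACS 2.1.2 was run by the authors in broad mode on each ChIP library with its own input (paired-end, q of 0.05, broad cutoff of 0.05, at most 1 copy of a fragment, the larger library scaled down). Libraries were not pooled. HOMER 4.10, deepTools 2.4.1, ChIPseeker, Bowtie2 and FastQC 0.11.5 were also used, per the submitters' processing notes. No source used here names a genome build. The deposited lists hold, for every peak, its length, a pileup (coverage signal, not used here), −log10 p, −log10 q and the fold enrichment, a ratio over local input.

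Genes and promoter windows came from RefSeq tables of GRCm38.p6. The build was checked on the peaks: wild-type peaks overlapped 12229 of 21262 promoter windows, against 854 and 880 when the windows were moved by 20 kb in either direction. An overlap of 1 bp counted. Gene marking was tested on simulated peaks. All 8 genes are named, as are genes of the wider lists whose presence differed and neighbours that share a peak. Genes, lists and rules were chosen with earlier results of these data known. The alternatives were a q of 0.001, fold enrichment of 4, lists of equal length, peaks within 3 kb merged, no flank, a flank of 10 kb, windows of 2 kb around gene ends, and overlap of 50% of the shorter peak. Software was Python 3.11.15 (pandas 2.3.3, numpy 2.4.6, scipy 1.17.1, matplotlib 3.10.9).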

Additional observations from a re-analysis of the deposited data

How the results depend on the processing

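With 1 library per genotype, presence near the threshold is the main limit. Presence at each gene was the same in all lists with equally long lists, with peaks within 3 kb merged and with flanks of 10 kb. At q of 0.001 or less, genes gained against wild type numbered 0 in Ezh2-cKO, where Aldh1a2 was lost, and 1 in Jmjd3-cKO, where Cyp26a1 was lost. At fold enrichment of 4 or more, a level that is not equal between lists, 4 genes were marked in Ezh2-cKO. The gains were then 0 in Ezh2-cKO, 1 in Jmjd3-cKO (Aldh1a2) and 1 in Utx-cKO (Aldh1a1, no longer marked in wild type), and the Cyp26a1 gains were lost. Of genes marked in wild type, 1 was missing from Ezh2-cKO (Cyp26b1) and 1 from Jmjd3-cKO (Rarb in place of Aldh1a1). Aldh1a3 counted as marked in Ezh2-cKO and Jmjd3-cKO only through the peak at its neighbour Lrrk1. Its own strongest peak had fold enrichment 3.29 in Ezh2-cKO and 3.83 in Jmjd3-cKO, against 4.43 in wild type and 5.18 in Utx-cKO. The covered length at that level was 28588 bp in Ezh2-cKO and 22404 bp in wild type, against 56336 and 43840 bp with all peaks. With no flank, gains were 0 in Ezh2-cKO and 1 in Utx-cKO. Without peaks in a neighbouring gene, an alternative chosen after seeing the data, the Utx-cKO gain was 1. Within 2 kb of either gene end the covered length was 10133 bp in Ezh2-cKO, 16298 bp in Utx-cKO, 8882 bp in Jmjd3-cKO and 7497 bp in wild type. Presence changed in 6 of 32 cases there, and the genes marked numbered 5 in Ezh2-cKO, 7 in Utx-cKO, 6 in Jmjd3-cKO and 4 in wild type, which lost Cyp26b1 and Rarb. The Rarb start printed above lies inside the gene and outside these windows, so its peak did not count in any list. Rarb was then marked in Utx-cKO alone, by a peak of fold enrichment 2.52 at its low-coordinate end. Gains were then 1 in Ezh2-cKO, 3 in Jmjd3-cKO and 3 in Utx-cKO. Requiring 50% of the shorter peak changed no overlap count. No paired analysis was possible because each genotype has 1 library.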
